A study of Mus musculus with 2 samples.

Results

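The platelet-derived growth factor (PDGF) ligand genes Pdgfa, Pdgfb, Pdgfc and Pdgfd and the receptor genes Pdgfra and Pdgfrb were examined in 2 mouse prostate tumour libraries. The members were the rows of the deposited count table that carry these 6 symbols, out of 27376 genes, and all 6 were found and passed the minimum of a mean of 1 CPM, the count of reads scaled to the size of the library. The study profiled RNA of fresh prostate tumour tissue from mice with the genotype names Bcat_Only and Met_Bcat, both 16 months old, with 1 library per genotype. In its column heading, the Bcat_Only library carries the further words Bcat_ex3Plus and PB_Cre, which name an exon 3 allele of beta-catenin and a Cre driver. Neither the MET allele nor the cells in which Cre acts are described in the labels, and no treatment is named. Whole tissue was extracted, so each library mixes tumour epithelium with stroma, vessels and blood cells. Met_Bcat was compared with Bcat_Only to ask how these genes differed between a tumour of each genotype. Since only 1 library stood for each genotype, no test could be made and no replicate shows the spread, so every difference compares these 2 libraries rather than the genotypes, and all intervals cover counting error only.

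PDGF ligands are secreted dimers of the cystine knot fold that bind and pair receptor tyrosine kinases at the cell surface. PDGF-A and PDGF-C act mainly through PDGFRα, PDGF-B binds both receptors, and PDGF-D acts mainly through PDGFRβ. In most tissues the ligands come from epithelium, endothelium, macrophages or platelets, whereas PDGFRα marks fibroblasts and other mesenchymal cells and PDGFRβ marks pericytes, smooth muscle and fibroblasts. PDGF-A and PDGF-B are cut by furin-like convertases inside the cell, while PDGF-C and PDGF-D are secreted in a latent form whose CUB domain is removed by plasminogen activators or matriptase.

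Reads assigned to genes numbered 19301062 in Bcat_Only and 20117724 in Met_Bcat. Met stood at 169 and 166 CPM in Bcat_Only and Met_Bcat, and Ctnnb1 at 981 and 974 CPM, so neither total separated the libraries. Luminal epithelial markers were present in both libraries, at a summed 4753 and 8203 CPM over 13 genes. The 4 prostate secretory genes summed to 34.7 CPM in Bcat_Only and 6064 CPM in Met_Bcat, nearly all of the latter from Tgm4, with Spink3 at 50 and 0 reads and Msmb at 0 reads in each. The 4 seminal vesicle genes Svs2, Svs4, Svs5 and Svs6 summed to 6132 CPM in Bcat_Only and 4.51 CPM in Met_Bcat.

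Promoter sequence is shown for the receptor gene that differed most between the libraries and for the ligand gene with the ratio nearest to 1 under the library scaling used here (TMM, trimmed mean of M values), a rank that went to Pdgfa under total counts and to Pdgfd under luminal marker scaling. The windows shown hold the 250 bases before a RefSeq start site on GRCm38.p6, 5′ to 3′ on the plus strand. They overlap 0 exons of GENCODE M21, whereas the Pdgfa windows counted further below lie on the minus strand and overlap 1 and 4. Other start sites of Pdgfra are annotated. Capitals mark CTTTG on either strand, the core of the site bound by TCF and LEF factors, the DNA-binding partners of beta-catenin.
Pdgfra, chr5:75152001-75152250: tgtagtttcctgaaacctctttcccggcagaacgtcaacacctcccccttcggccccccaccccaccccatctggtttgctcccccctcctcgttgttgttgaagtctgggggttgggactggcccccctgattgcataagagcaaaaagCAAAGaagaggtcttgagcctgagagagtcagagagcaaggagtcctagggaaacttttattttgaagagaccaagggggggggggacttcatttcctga
Pdgfc, chr3:81036166-81036415: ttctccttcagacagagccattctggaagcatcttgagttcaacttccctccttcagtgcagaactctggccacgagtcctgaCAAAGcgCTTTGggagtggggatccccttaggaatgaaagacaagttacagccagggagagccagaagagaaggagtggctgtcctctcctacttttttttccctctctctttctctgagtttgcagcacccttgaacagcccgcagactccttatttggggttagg
CTTTG occurred 1 time in the Pdgfra window and 2 times in the Pdgfc window, and 48.6% of 32851 RefSeq promoter windows of this length held it. The longer form CTTTGA, which contains CTTTG and was held by 13.8% of all windows, occurred in 0 of 5 windows of Pdgfa, Pdgfc, Pdgfd and Pdgfra. The GC box GGGCGG occurred in both Pdgfa windows and in 32.7% of all windows, and the TATA box TATAAA in the Pdgfd window and in 12.4% of all. Matches on both strands were counted, and they describe letters, not bound sites.

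Pdgfra was 3.29-fold lower in Met_Bcat, Pdgfrb and Pdgfb stood 2.11-fold and 2.10-fold below Bcat_Only without passing the rule given next, and the ratios of Pdgfa, Pdgfc and Pdgfd were nearer to 1. Summed per kilobase of exon, the ligands stood at 38.7 CPM per kilobase in Bcat_Only and 33.9 in Met_Bcat, 1.14-fold lower, and the receptors at 62.6 and 23.5, 2.67-fold lower. The size rule asked that the whole 95% interval of a ratio lie at least 2-fold from no difference, which the end nearest to it decides. By this rule 1 of the 6 members was lower, Pdgfra, and 0 were higher, beside 14.6% of 14354 genes lower and 4.42% higher across the transcriptome. Asking for 1.5-fold, 3 members were lower (Pdgfra, Pdgfrb and Pdgfb) and 0 higher, beside 19.7% and 8.12% of all genes, and asking for 4-fold, 0 were lower or higher, beside 7.57% and 1.75%. Ratios below 1 were found for 4 of the 6 members and for 47.7% of all genes. The median log2 ratio of CPM plus 0.5 was −0.65 over the 6 members and 0.030 over all genes considered. Fewer cells of a type and less RNA per cell cannot be told apart in whole tissue.

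**Figure D1:**
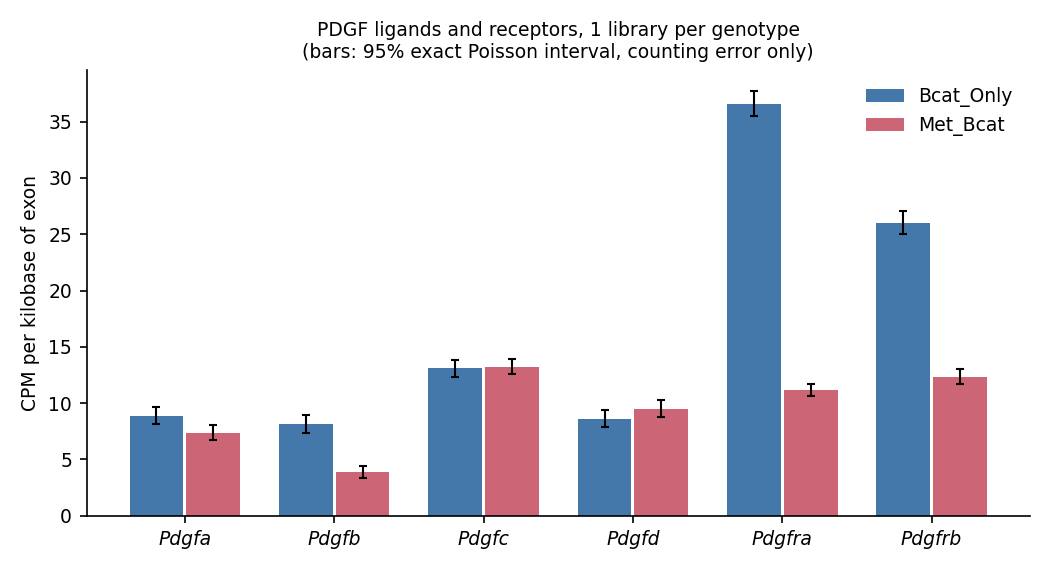
Level of each PDGF ligand and receptor gene in CPM per kilobase of exon (vertical axis, linear from 0) in the Bcat_Only and Met_Bcat libraries, with 95% exact Poisson intervals for counting error. Pdgfra drops from 36.6 to 11.1 and Pdgfrb from 26.0 to 12.3, while Pdgfc stays near 13.

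Among the ligands, Pdgfc had the highest level per length in both libraries. Pdgfc (ENSMUSG00000028019, mm9 chromosome 3, 80840338 to 81017962), which encodes a latent ligand of PDGFRα, had 1226 reads in Bcat_Only and 1418 in Met_Bcat, or 66.5 and 67.3 CPM. Its log2 ratio was 0.016 (95% interval −0.095 to 0.13), which spans no difference. On the per-length scale it stood at 13.1 CPM per kilobase in Bcat_Only, above 65.3% of the genes considered, and at 13.2 in Met_Bcat, above 67.3%.

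Pdgfd (ENSMUSG00000032006, chromosome 9, 6168612 to 6378843), the latent ligand of PDGFRβ, had 495 and 625 reads, or 26.9 CPM in Bcat_Only and 29.7 CPM in Met_Bcat. The log2 ratio of Pdgfd was 0.14 (−0.030 to 0.32), the highest of the members, and its interval also spans no difference. The signs of the Pdgfc and Pdgfd ratios both turned under scaling to the luminal epithelial markers, where they were −0.42 and −0.29.

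Pdgfa (ENSMUSG00000025856, chromosome 5, 139451968 to 139473324), the ligand restricted to PDGFRα, had 509 reads in Bcat_Only and 482 in Met_Bcat, or 27.6 and 22.9 CPM. It was 1.21-fold lower in Met_Bcat (1.06 to 1.37), well short of the 2-fold rule. The gene 6330403L08Rik overlaps Pdgfa on the opposite strand, with 167 and 140 reads, and since the strand setting of the counting is not known, reads in the shared stretch cannot be assigned with certainty.

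Pdgfb (ENSMUSG00000000489, chromosome 15, 79826330 to 79845238), which endothelial cells secrete to attract pericytes, differed most among the ligands. It had 436 reads in Bcat_Only and 237 in Met_Bcat, or 23.7 and 11.2 CPM, and was 2.10-fold lower in Met_Bcat (1.79 to 2.48), so that the near end of its interval fell short of 2-fold. Under luminal marker scaling Pdgfb passed, with a log2 ratio of −1.51. Per length it was the lowest of the 6 members in each library, at 8.11 and 3.85 CPM per kilobase. In Bcat_Only its interval of 7.37 to 8.91 overlapped those of Pdgfd (7.87 to 9.41) and Pdgfa (8.10 to 9.66), and in Met_Bcat its interval of 3.38 to 4.38 lay below all others.

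Markers of cells that make PDGF-B were lower in the same library. All 3 platelet markers with enough reads passed the rule, led by Pf4, a chemokine of platelet granules, with 842 reads against 23 (41.9-fold lower, 27.7 to 66.4). The 6 listed platelet genes summed to 55.4 CPM in Bcat_Only and 3.37 CPM in Met_Bcat, of which Pf4 gave 45.7 and 1.09 CPM. Ppbp had 102 and 24 reads and Itga2b 49 and 12, in Bcat_Only and Met_Bcat. Whether the Pf4 reads came from platelets or from other cells was not tested. Below the minimum of 1 CPM, Gp9 had 7 and 0 reads, Gp1ba 8 and 1, and Gp1bb 12 and 11, in Bcat_Only and Met_Bcat. Of 10 endothelial markers 7 were lower, with a median log2 ratio of −1.22 and summed levels of 700 and 365 CPM, and 0 of them lacked reads. Under total-count scaling 4 endothelial markers passed. All 9 macrophage markers were lower, with a median of −2.46. It was −2.49 when the pseudocount was left out and Cd163, at 0 reads in Met_Bcat, was set to a floor of 3 reads. Summed macrophage levels were 3274 CPM in Bcat_Only and 545 CPM in Met_Bcat. The part of these cells in the Pdgfb difference was not tested.

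The make-up of the ligand pool follows from these levels and does not depend on the scaling between libraries. Of the summed ligand level per length, Pdgfc held 33.8% in Bcat_Only and 39.0% in Met_Bcat, and Pdgfd held 22.3% and 28.0%. Pdgfa held 22.9% and 21.6%. The share of Pdgfb was 21.0% in Bcat_Only and 11.4% in Met_Bcat. Counted as reads of the 4 ligands, Pdgfb made up 16.4% in Bcat_Only (exact Clopper-Pearson interval 15.0% to 17.8%) and 8.58% in Met_Bcat (7.56% to 9.69%), and these intervals do not overlap.

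Pdgfra (ENSMUSG00000029231, chromosome 5, 75548316 to 75594229), the receptor of fibroblasts and mesenchymal progenitors, was the member with the largest difference. It had 4543 reads in Bcat_Only and 1581 in Met_Bcat, or 247 and 75.01 CPM, and was 3.29-fold lower in Met_Bcat (3.10 to 3.48). Its level per length stood above 88.4% of the genes considered in Bcat_Only and above 62.6% in Met_Bcat. It was lower under each of the 5 scalings tried, with log2 ratios from −2.15 to −1.58.

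Pdgfrb (ENSMUSG00000024620, chromosome 18, 61204804 to 61244715), the receptor of pericytes and vascular smooth muscle, had 2626 and 1425 reads, or 143 CPM in Bcat_Only and 67.6 CPM in Met_Bcat. It was 2.11-fold lower in Met_Bcat (1.98 to 2.25), so the near end lay just under 2-fold. Its level per length stood above 82.9% of the genes considered in Bcat_Only and above 65.4% in Met_Bcat. Pdgfrb passed the 2-fold rule under luminal marker scaling, with a log2 ratio of −1.51.

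**Figure D2:**
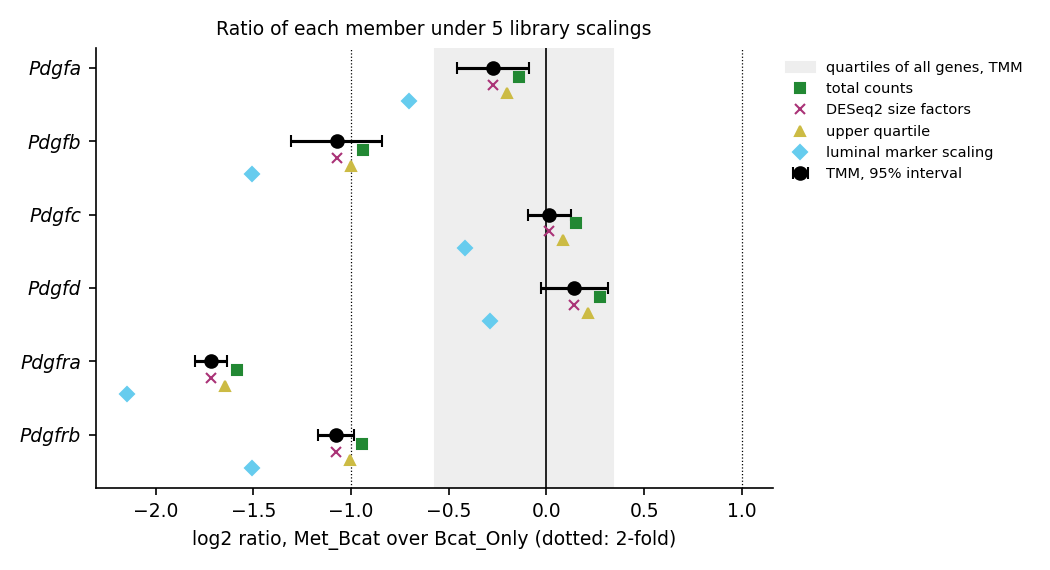
Log2 ratio of Met_Bcat over Bcat_Only for each member (horizontal axis) under TMM scaling with its 95% counting interval (black) and under 4 other scalings (coloured marks, set below it), with the quartiles of all genes considered in grey and 2-fold marked by dotted lines. Pdgfra lies left of the 2-fold line under each scaling, and Pdgfb and Pdgfrb lie near it except under luminal marker scaling.

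The order of the receptors turned between the libraries. Per length, Pdgfra exceeded Pdgfrb in Bcat_Only by a ratio of 1.41 (1.34 to 1.48), and in Met_Bcat the ratio was 0.90 (0.84 to 0.97). The ratio was thus 1.56-fold lower in Met_Bcat, a difference that the scaling between libraries cannot alter. Counted in reads without division by length, Pdgfra stayed above Pdgfrb in both libraries, at ratios of 1.73 and 1.11, so the turn of the order, though not the size of the shift, rests on the deposited exon lengths of 6737 and 5478 bases.

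Ligand transcripts were compared with those of the receptors they bind, within each library and per length. Pdgfc stood at 0.36 of the Pdgfra level in Bcat_Only (0.34 to 0.38) and at 1.19 of it in Met_Bcat (1.10 to 1.28), a 3.32-fold higher ratio. The Pdgfa to Pdgfra ratio was 0.24 (0.22 to 0.27) in Bcat_Only and 0.66 (0.59 to 0.73) in Met_Bcat, 2.72-fold higher, and for Pdgfd to Pdgfrb it was 0.33 (0.30 to 0.36) and 0.77 (0.70 to 0.85), 2.33-fold higher. For these 3 pairs the intervals of the libraries do not overlap.

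The pair of Pdgfb and Pdgfrb, through which endothelial cells recruit pericytes, showed the same ratio in both libraries. Pdgfb stood at 0.312 of the Pdgfrb level in Bcat_Only (0.281 to 0.345) and at 0.312 in Met_Bcat (0.271 to 0.358), a ratio of 1.002 between the libraries. Against Pdgfra, which PDGF-B also binds, it stood at 0.22 (0.20 to 0.24) and 0.35 (0.30 to 0.40), higher in Met_Bcat. Over all members, the summed ligand level was 0.62 of the summed receptor level in Bcat_Only and 1.44 of it in Met_Bcat.

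**Figure D3:**
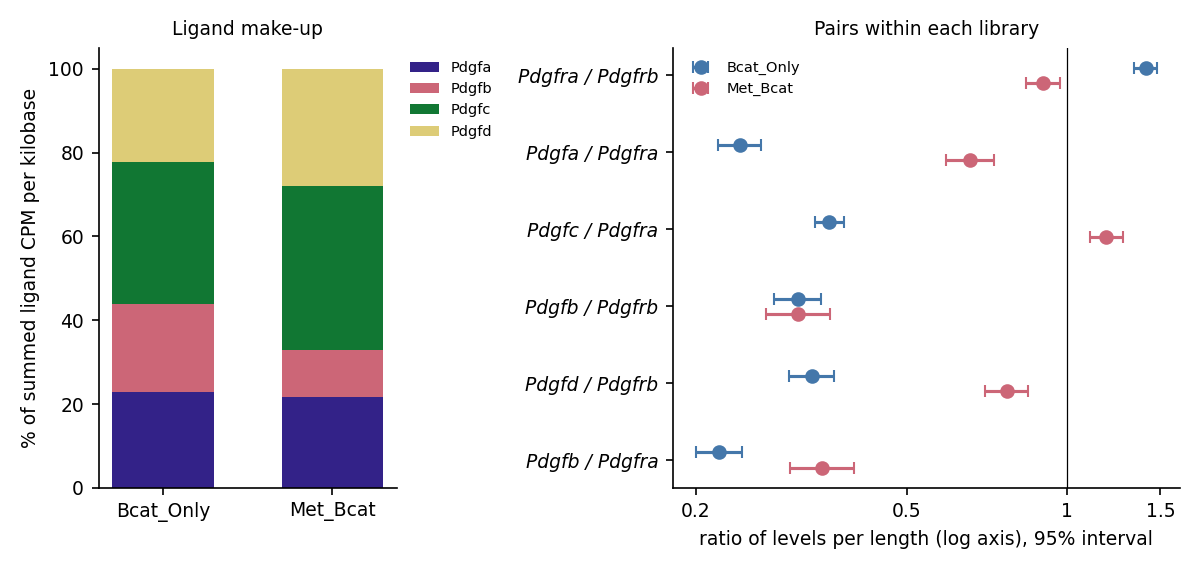
Left, share of each ligand in the summed ligand CPM per kilobase in each library; right, ratio of levels per length for 1 receptor pair and 5 ligand and receptor pairs (log axis, 95% counting intervals), Bcat_Only in blue and Met_Bcat in red. The Pdgfb share is smaller in Met_Bcat, and the Pdgfb to Pdgfrb ratio overlaps between libraries while the others do not.

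Markers of the cells that carry the receptors were lower in Met_Bcat as well, and by their medians fibroblast and smooth muscle markers differed more than the receptors. All 10 fibroblast markers passed the rule, at a median log2 ratio of −4.83, or 28.5-fold, and all 10 had ratios below that of Pdgfra. They included the dermatopontin gene Dpt, whose 1601 reads faced 1 read in Met_Bcat (1831-fold, 328 to 72384), and the collagen gene Col1a2, 84.3-fold lower (79.3 to 89.7). The summed fibroblast marker level was 23842 CPM in Bcat_Only against 828 CPM in Met_Bcat, and each of the 10 genes had reads in both libraries. The part of fibroblast content in the Pdgfra difference was not tested.

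Pericyte markers had a median between the ratios of Pdgfrb and Pdgfra, which were −1.07 and −1.71 with the same pseudocount. Smooth muscle markers had ratios below that of Pdgfrb. Of 7 pericyte markers considered, 4 were lower, with a median of −1.38 and 5 ratios below that of Pdgfrb, and the summed level over all 8 listed was 368 CPM in Bcat_Only and 171 CPM in Met_Bcat. The lower pericyte genes included the receptor gene Notch3 at 3.81-fold (3.27 to 4.45) and the adhesion gene Mcam at 2.63-fold. The others past the rule were the potassium channel subunit genes Kcnj8 and Abcc9, at 3.55-fold and 3.28-fold. Rgs5, with 2765 reads in Bcat_Only and 2011 in Met_Bcat, was 1.57-fold lower (1.48 to 1.67). Cspg4 was 2.26-fold lower (1.86 to 2.75) and Cox4i2 1.17-fold (0.85 to 1.62), and neither passed. Higd1b, below the minimum of 1 CPM, had 19 and 18 reads. All 8 smooth muscle markers passed the rule and had ratios below that of Pdgfrb, with a median of −3.92 (−4.88 without the pseudocount and −2.95 with 2 CPM) and summed levels of 601 and 63.2 CPM, among them the calponin gene Cnn1 at 57.0-fold (24.1 to 177) and Tagln at 31.0-fold (25.7 to 37.7). None of the pericyte or smooth muscle markers had 0 reads. The part of mural cells in the Pdgfrb difference was not tested.

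Other cells in which PDGFRα is known, adipocyte progenitors and glia, were followed through their lineage markers. Of 6 adipocyte markers 2 were considered and both were lower, Adipoq with 60 reads in Bcat_Only but 1 in the other library (68.6-fold, 11.9 to 2756) and Fabp4 at 3.65-fold. Cidec, Plin1 and Retn, below the minimum of 1 CPM, had 17, 9 and 8 reads in Bcat_Only and 0 in Met_Bcat. Lep had 0 reads in both libraries. Of 4 Schwann cell and glia markers considered, 2 were lower, among them S100b at 4.37-fold (2.21 to 9.41). Summed adipocyte markers stood at 74.4 and 19.03 CPM and summed glia markers at 139 and 103 CPM.

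Epithelial markers, from a tissue compartment that makes PDGF ligands, had medians above 0, with genes in both directions. Of 13 luminal markers 5 were higher and 1 was lower, with a median of 0.43, among them the homeobox gene Hoxb13 at 5.69-fold higher, and of 8 basal markers 4 were higher and 1 was lower, with a median of 1.25, led by the desmoglein gene Dsg3 at 7.11-fold, Krt14 at 5.46-fold and Krt5 at 4.85-fold. The lower genes were Cldn7, at 2.20-fold, which did not pass under total counts or upper-quartile scaling, and Krt15, at 10.9-fold, and the luminal genes Cdh1 and Epcam had log2 ratios of −0.26 and −0.23. Summed basal marker levels were 590 CPM in Bcat_Only and 1518 CPM in Met_Bcat. Luminal marker scaling sets the median log2 ratio of the 13 luminal genes to 0. Under it 2 luminal markers were counted as higher, a count that is therefore no independent check.

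**Figure D4:**
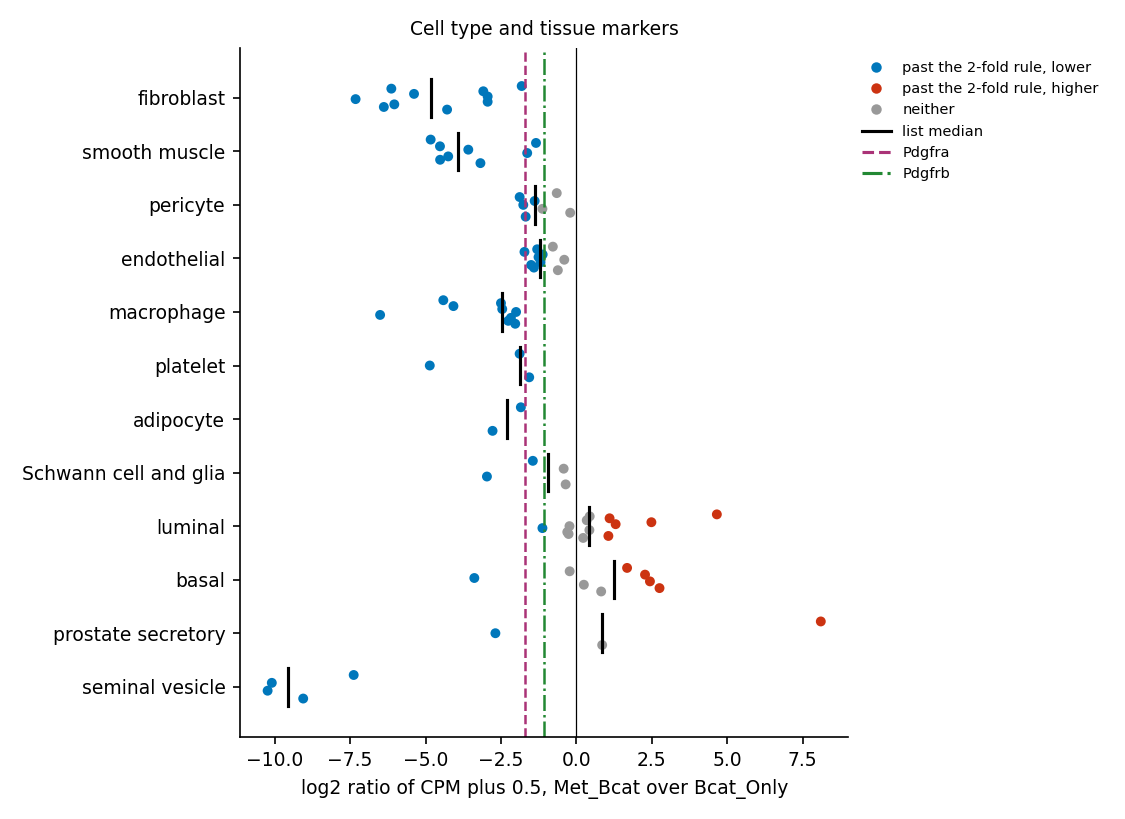
Log2 ratio of CPM plus 0.5 (horizontal axis) of each marker gene with a mean of at least 1 CPM, by cell type or tissue, with list medians as black bars and the ratios of Pdgfra and Pdgfrb as vertical lines. All 10 fibroblast and all 9 macrophage markers lie left of Pdgfra. Of 7 pericyte markers 2 lie left of Pdgfra and 5 left of Pdgfrb, and of 10 endothelial markers 1 and 7.

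Proteases that release active PDGF were lower or little different, apart from matriptase. Of 8 genes on the list 4 were lower and 0 higher, with a median of −1.12. Plat, tissue plasminogen activator, which cleaves PDGF-C, had 7200 reads in Bcat_Only and 3413 in Met_Bcat and was 2.41-fold lower (2.32 to 2.51). Plau, urokinase, which cleaves PDGF-D, was 2.63-fold lower (2.30 to 2.997), at 41.0 and 15.6 CPM. St14, matriptase, an epithelial protease that also cleaves PDGF-D, stood higher in Met_Bcat, at 442 CPM beside 269 CPM, a log2 ratio of 0.71 that did not pass the rule.

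Of the convertases that mature PDGF-A and PDGF-B, Pcsk5 was 2.27-fold lower (2.11 to 2.44), Furin stood at 258 and 184 CPM (log2 ratio −0.49) and Pcsk7 at 43.5 and 43.2 CPM. Pcsk6 stood at 14.6 and 6.69 CPM, 2.18-fold apart (1.77 to 2.70). Furin, Pcsk6 and Pcsk7 did not pass the rule.

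All 6 binding partners of the ligands or receptors were lower, with a median of −2.30. Pdgfrl, a secreted protein with similarity to the receptor ectodomain, was 38.9-fold lower (26.0 to 61.1), from 817 reads to 24. Sparc, a matrix protein that binds PDGF, was 11.5-fold lower, A2m, the protease inhibitor alpha-2-macroglobulin, 6.18-fold, and Lrp1, an endocytic receptor that associates with PDGFRβ, 3.95-fold. Sparc and Lrp1 are also expressed by fibroblasts, whose markers were lower in the same library, and the part of fibroblast content was not tested.

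Most genes that relay the receptor signal differed little, and the negative regulators had a median below 0. Of 23 adaptors and enzymes that dock on the activated receptors, 1 was lower and 0 were higher, with a median of 0.13 that turned to −0.30 under luminal marker scaling and a mean of −0.033. Stat3 was the lower one, at 2.30-fold (2.22 to 2.39). Of 8 negative regulators, with a median of −0.57, Ptprj, a receptor phosphatase, was 2.20-fold lower (2.08 to 2.34), and it no longer passed under total-count or upper-quartile scaling.

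Of 14 genes that PDGF induces in cultured fibroblasts, 5 were lower and 1 was higher, with a median of −0.31. The chemokine genes Ccl7, Cxcl1 and Ccl2 were lower by 47.5-fold (29.5 to 82.0), 41.1-fold (27.5 to 64.6) and 12.1-fold (8.30 to 18.2), in that order, and Has2, a hyaluronan synthase, was 12.1-fold lower (7.66 to 20.3). The remaining lower gene was Sphk1, a sphingosine kinase, at 3.89-fold. The immediate-early transcription factor Egr1 was higher, at 213 CPM in Met_Bcat beside 97.2 CPM, and it did not pass under luminal marker scaling. The other transcription factor genes of the list did not pass, among them Fos at 59.1 and 46.5 CPM and Junb at 169 and 139 CPM. Macrophages also make these chemokines, and the summed macrophage marker level was 6.01-fold lower in the same library. The part of macrophages in these differences was not tested.

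The other class III receptor kinases, which share the split kinase domain of the PDGF receptors, differed in both directions. Csf1r, the receptor of macrophage colony-stimulating factor, was 4.65-fold lower (4.38 to 4.94), and its ligands Csf1 and Il34 were 4.43-fold and 7.05-fold lower. Kit, the stem cell factor receptor, was 2.65-fold higher (2.40 to 2.93), and its ligand Kitl stood at 165 and 271 CPM. The list had 3 lower genes and 1 higher gene of 7, a median of 0.65 and a mean of −0.34, which differ in sign. With a minimum of 10 CPM the median was −0.71, and under luminal marker scaling 0 genes were higher.

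Among the ligands of the related VEGF family, 1 of 5 passed the rule. Figf, which encodes VEGF-D, went from 1285 reads in Bcat_Only to 3 in Met_Bcat (490-fold, 167 to 2379). Vegfa stood at 123 and 104 CPM and Vegfb at 18.4 and 24.4 CPM. Over the 7 lists of pathway and related genes together, 21 of 71 genes (29.6%) were lower and 2 (2.82%) were higher, beside the 14.6% and 4.42% of all genes given above.

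**Figure D5:**
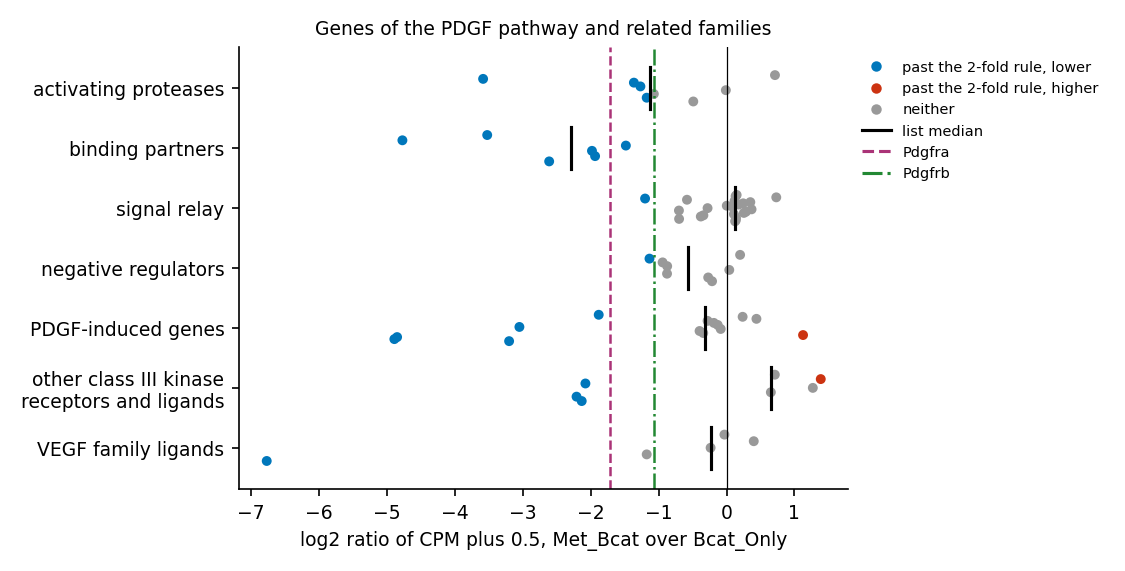
Log2 ratio of CPM plus 0.5 (horizontal axis) of each gene on 7 lists of PDGF pathway and related genes, with list medians as black bars and the ratios of Pdgfra and Pdgfrb as vertical lines. The 6 binding partners lie left of Pdgfrb, while most of the 23 relay genes lie near 0.

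The genes with levels most like each member were sought among the 162 listed genes by the distance of log2 CPM per kilobase plus 0.5 over the 2 libraries. For Pdgfra these were Csf1 (distance 0.41) and Pecam1 (0.50), and for Pdgfrb Ptpn2 (0.17) and the pericyte marker Mcam (0.36). For Pdgfb they were the endothelial receptor gene Tie1 (0.16) and Smtn (0.28). Pdgfa was nearest to Plcg1 (0.14) and Sos1 (0.35), Pdgfc to Rasa1 (0.18) and Yes1 (0.20), and Pdgfd to Pik3cb (0.10) and Nr4a1 (0.14). The neighbours of Pdgfa and Pdgfc were genes of the relay or negative regulator lists, and those of Pdgfb were an endothelial and a smooth muscle marker. Pdgfrb had a negative regulator nearest, and the endothelial marker Pecam1 came second for Pdgfra. Over 2 libraries such nearness describes level and ratio, not the cell of origin.

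The sign of a small difference depended on the scaling. Total counts placed each log2 ratio 0.13 above its TMM value, and luminal marker scaling shifted it by −0.43. Of the genes past the rule 76.8% were lower under TMM and 88.4% under luminal marker scaling.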

How the data were processed

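The authors deposited raw counts of reads for each gene as whole numbers, with total exon length in bases and mm9 coordinates, per the file headers. TopHat2 version 2, HTSeq and edgeR are named in the submitters' processing notes. For the alignment and counting settings, strand included, the sources used here give nothing. Columns were matched to samples through the sample number in their headings. Library sizes were scaled by TMM (edgeR 4.0.16, R 4.3.3), with factors of 0.955 for Bcat_Only and 1.05 for Met_Bcat. Ratios of CPM carry 95% exact (Clopper-Pearson) intervals conditional on the summed reads (scipy 1.17.1). PCR reads are not independent molecules. Levels were compared between genes only as CPM per kilobase of deposited exon length. List medians used CPM plus 0.5. The 7 pathway lists (71 genes) and 12 marker lists (91 genes) came from textbook knowledge, and a gene was named if it was a member, among up to 4 genes per list farthest past the rule, a named activating protease, or nearest to a member; others were named after their values were seen, as were the ligand and receptor pairs and CTTTG. Members and lists were chosen with earlier results of these data known. The procedure was tested on simulated data. A few genes picked by the naming rule count in their lists but are not reported here.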

Additional observations from a re-analysis of the deposited data

How the results depend on the processing

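No paired analysis was possible because each genotype has 1 library, and for the same reason no library could be left out. Under luminal marker scaling the log2 ratios were −0.70 for Pdgfa, −1.51 for Pdgfb, −0.42 for Pdgfc, −0.29 for Pdgfd, −2.15 for Pdgfra and −1.51 for Pdgfrb, 3 members were lower, and 0 pathway genes were higher. Under total counts the ratios of Pdgfc, Pdgfra and Pdgfrb were 0.15, −1.58 and −0.94, and the other members stayed within their intervals. DESeq2 size factors (DESeq2 1.42.0), upper-quartile scaling and a pseudocount of 0.5 or 2 CPM kept all 6 ratios within their intervals. With a near end of at least 1.5-fold 3 members were lower and with 4-fold 0 were. In reads not divided by length, the shares of Pdgfa, Pdgfb, Pdgfc and Pdgfd were 19.1%, 16.4%, 46.0% and 18.6% in Bcat_Only and 17.5%, 8.58%, 51.3% and 22.6% in Met_Bcat, and the receptor ratios were 1.73 and 1.11. Of the list medians, that of the relay genes changed sign under luminal marker scaling and that of the class III receptors with a minimum of 10 CPM. Depth gave each member at least 237 reads per library, and the spread between tumours was not measured.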
